A study of Mus musculus with 8 samples.

Results

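The genes that encode the H3K9 methyltransferases and their HP1 readers were scored for the methylation that their own products write or read. It comprises the mono-, di- and trimethyl states of histone H3 lysine 9 (H3K9me1, H3K9me2, H3K9me3). The 8 genes were taken as a list of autosomal genes, while the 21 main chromosomes hold 55413 annotated genes in all, including 21938 that code for protein. They comprised 5 methyltransferase genes (Suv39h2, Setdb1, Setdb2, Ehmt1 and Ehmt2) and 3 HP1 genes (Cbx1, Cbx3 and Cbx5), and all 8 were found in the GENCODE M21 annotation of GRCm38. The list names genes by what they encode, with earlier results of these data known. X-linked Suv39h1 was outside the list.

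Chromatin immunoprecipitation followed by sequencing was performed in mouse embryonic fibroblasts (MEFs) labelled wild type, with 4 groups (input DNA and the 3 marks) of 2 replicates each. Each mark came as 1 list of enriched regions without a separate value for either replicate. Hence every value below belongs to 1 map and has no error, and the lists do not give the number of reads behind a region. Per the study's methods, the WT cells were the E1c line, a single clone of MEFs that carry a conditional Setdb1 (Eset1) allele with floxed exons and a tamoxifen-inducible Cre, and the labels give no tamoxifen for these samples. The cell type cannot be checked from region lists, since they hold no expression values.

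The 5 methyltransferase genes encode SET domain enzymes that transfer methyl groups to lysine 9 of H3. With Suv39h1, they make up the set of such genes that the study disrupted. Ehmt2 (G9a) and Ehmt1 (GLP) act as a dimer, Setdb1 is brought to its targets by KRAB zinc finger proteins through Trim28, and the Suv39h enzymes bind the methylated tail with a chromodomain of their own. H3K9me3 is read by the chromodomain of the HP1 proteins, HP1 beta (Cbx1), HP1 gamma (Cbx3) and HP1 alpha (Cbx5), which recruit further silencing factors. These enzymes and readers are made in most cell types.

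None of the 8 genes carried H3K9me2 or H3K9me3, and 4 carried H3K9me1 inside the gene body, away from the gene's 5' end. Those were Cbx5 (34.6% of the gene body covered), Ehmt1 (29.4%), Ehmt2 (28.9%) and Setdb2 (3.86%). Suv39h2, Setdb1, Cbx1 and Cbx3 were at 0 in all 3 lists. Over all protein-coding genes, H3K9me1 met 39.3% of bodies, H3K9me2 16.5% and H3K9me3 16.3%. With 8 genes, neither the 4 met nor the absence of the other marks can be told apart from these shares. Of the protein-coding genes with an H3K9me1 body on chromosomes 2, 14, 15 and 17, 60.3% likewise had no H3K9me1 within 1 kb of the 5' end. The regions lie on a grid of bins of 750 bp, and 1 bin is 4.81% of the Ehmt2 gene body. Ehmt1 and Ehmt2 differed by 0.482 percentage points, which is less than 1 such bin, whereas Cbx5 and Ehmt1 differed by 5.25 points.

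Stretches before the start sites of the covered genes are shown first, to set the gene's 5' end beside a start site inside an H3K9me1 region. Each runs 5' to 3' on the strand of the gene and ends at the base before the start site, with CpG dinucleotides in capitals (GRCm38, RefSeq sequence). A stretch was stopped where an annotated UTR of a neighbour began. For Ehmt1, the stretch lies at chr2:24919615-24919764 on the minus strand and holds 23 CpG in 150 bases.
Ehmt1, gene 5' end: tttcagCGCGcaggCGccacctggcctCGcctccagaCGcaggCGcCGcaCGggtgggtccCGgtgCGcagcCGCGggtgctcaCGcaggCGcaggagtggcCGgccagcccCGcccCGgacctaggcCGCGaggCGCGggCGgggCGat
The stretch before the 5' end of Ehmt2 lies at chr17:34898319-34898468 on the plus strand and holds 10 CpG.
Ehmt2, gene 5' end: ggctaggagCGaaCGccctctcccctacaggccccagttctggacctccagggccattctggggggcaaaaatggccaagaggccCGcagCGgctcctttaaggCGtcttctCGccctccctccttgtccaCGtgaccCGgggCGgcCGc
By contrast, the stretch before the internal start of the protein-coding transcript Ehmt2-214, at chr17:34907250-34907399, lay wholly inside an H3K9me1 region and holds 6 CpG. Its last 69 bases are coding sequence of exon 15 of Ehmt2-201, and the rest is intronic.
Ehmt2-214, internal start: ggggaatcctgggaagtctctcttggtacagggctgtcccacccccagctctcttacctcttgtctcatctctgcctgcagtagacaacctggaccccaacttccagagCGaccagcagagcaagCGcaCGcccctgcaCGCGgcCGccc
For Setdb2, the stretch before the 5' end lies at chr14:59440885-59440980 on the minus strand and holds 13 CpG in 96 bases, ending on its far side where the 5' UTR of the divergent gene Cab39l begins.
Setdb2, gene 5' end: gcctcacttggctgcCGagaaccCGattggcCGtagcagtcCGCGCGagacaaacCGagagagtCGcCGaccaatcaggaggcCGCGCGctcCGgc
Before the internal start of Setdb2-203, at chr14:59409656-59409805, 2 CpG were found in 150 bases, all of them intronic for Setdb2-201 and all inside an H3K9me1 region.
Setdb2-203, internal start: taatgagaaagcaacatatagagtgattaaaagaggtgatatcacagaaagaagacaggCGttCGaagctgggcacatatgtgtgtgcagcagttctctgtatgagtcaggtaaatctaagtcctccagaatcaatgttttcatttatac
The stretch before the 5' end of Cbx5 lies at chr15:103239817-103239966 on the minus strand and holds 13 CpG.
Cbx5, gene 5' end: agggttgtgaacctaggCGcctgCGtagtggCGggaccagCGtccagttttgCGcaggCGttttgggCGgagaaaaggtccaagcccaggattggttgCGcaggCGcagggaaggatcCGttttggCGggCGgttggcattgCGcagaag
None of the 4 stretches at a 5' end was met by an H3K9me1 region.

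The question of which genes carry a mark at their start sites was then put to all 62 start sites, taken as 1 kb either side of each. A start site was called met when at least 1 bp of a region lay in this window. H3K9me1 met a start site in 3 of the 8 genes (Setdb2, Ehmt1 and Ehmt2). The share called was 28.3% of protein-coding genes and 21.4% of all annotated genes. These shares are not matched for the number of start sites, which is 17 in Ehmt1 and 14 in Ehmt2. With protein-coding transcripts only, 1 of 8 was met (Ehmt2), and no share over all genes was made for that setting. H3K9me2 met 0 of the 8 genes, against 10.8% of protein-coding genes and 11.5% of all genes. H3K9me3 likewise met 0 of 8, against 10.2% and 12%, respectively. With the 3 lists together, the count was 3 of 8 against 33.1% of protein-coding genes. When only the 5' end of each gene was taken, H3K9me1 met 0 of 8, and 15.6% of protein-coding genes.

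Among the 62 sites, H3K9me1 met internal starts only. Suv39h2, Setdb1, Cbx1 and Cbx3 had no site met and no H3K9me1 in the body, so their sites show no split. Of the 39 start sites up to 2 kb from the gene's 5' end, 0 were met by H3K9me1, and their windows held 77 to 208 CpG. Of the 23 sites farther inside, 12 were met, and 9 of these belong to Ehmt2, at 1 region. The 12 windows met held 14 to 72 CpG, and the 11 internal windows not met held 11 to 22 CpG. A low CpG count alone therefore did not separate met from unmet windows, as the plot of CpG against cover shows. The sites of a gene share sequence and are not independent of each other. The same count of sites by distance from the 5' end was not made over other genes.

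**Figure D1:**
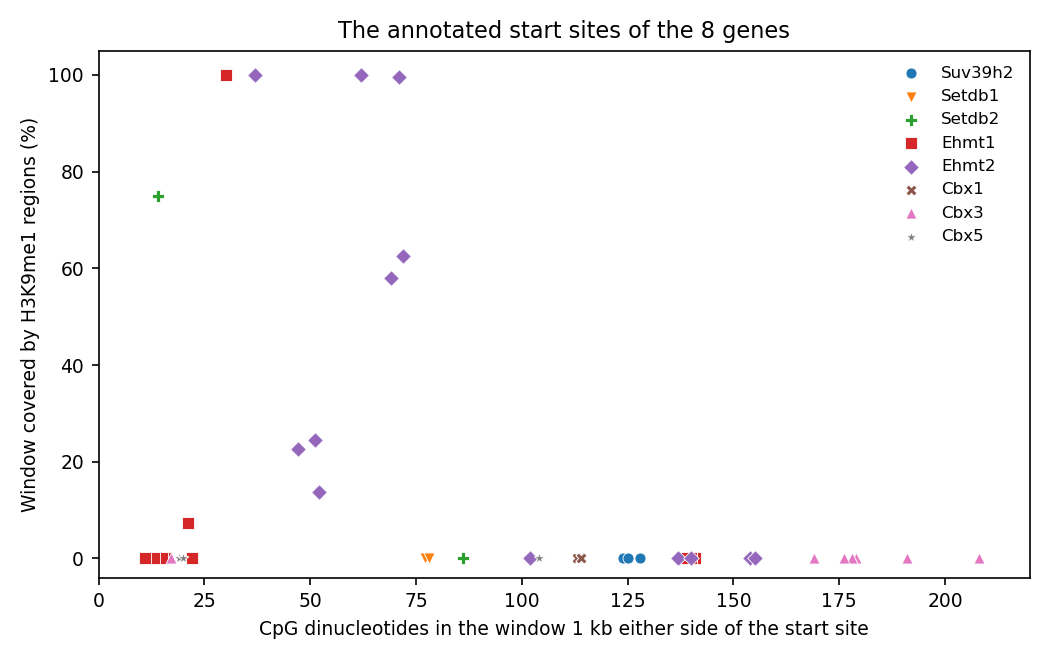
Each point is 1 of the 62 annotated start sites of the 8 genes, with the number of CpG dinucleotides in the window 1 kb either side on the horizontal axis and the percent of that window covered by H3K9me1 regions on the vertical axis. All windows with at least 77 CpG sit at 0, and the 12 covered windows belong to Ehmt2, Ehmt1 and Setdb2.

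The 5' ends of the 8 genes were rich in CpG. Their windows held a median of 119 CpG, from 78 in Setdb1 to 208 in Cbx3. Among the protein-coding genes of the same 7 chromosomes, the median was 69 CpG in the 6856 genes whose 5' end H3K9me1 did not meet, and 35 CpG in the 1485 genes where it did. Cbx3 had more CpG at its 5' end than 99.4% of these 8341 genes, Ehmt1 more than 92.0%, and Setdb1, the lowest of the 8, more than 61.5%. These medians are a description of sequence beside cover, and the part of CpG in the cover was not tested.

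Across gene bodies, which run from the first to the last annotated base, H3K9me1 met 4 of the 8 genes, against 39.3% of protein-coding genes. H3K9me2 met 0 of 8 against 16.5%, H3K9me3 met 0 of 8 against 16.3%, and the lists together met 4 of 8 against 44.7%. Summed over the 318 kb of the 8 bodies, H3K9me1 covered 19.1% and the other lists 0%. The positions of all regions are drawn in the maps by distance from the 5' end.

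**Figure D2:**
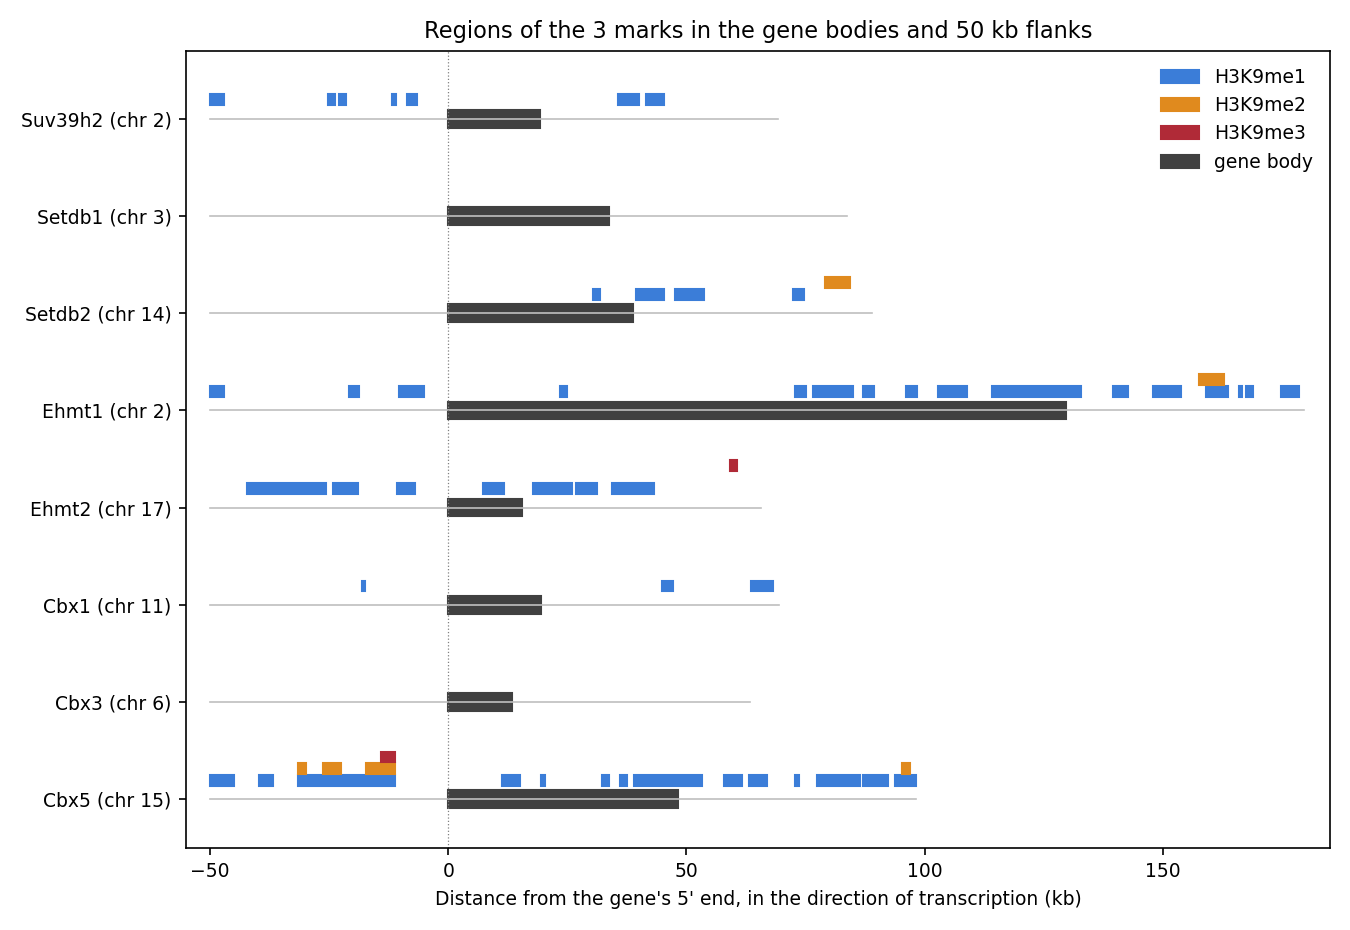
Each row is 1 of the 8 genes, with distance from its 5' end in kb along the direction of transcription, the gene body as a dark bar, its 50 kb flanks as a thin line and regions of the 3 marks as coloured blocks. Blue H3K9me1 blocks lie inside Setdb2, Ehmt1, Ehmt2 and Cbx5, no body has an H3K9me2 or H3K9me3 block, and Setdb1 and Cbx3 have no block at all.

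Among the methyltransferase genes, Ehmt1 and Ehmt2 encode the subunits of the GLP and G9a heterodimer. Ehmt1 (chromosome 2, 24789928 to 24919614, minus strand, 129.7 kb) had 7 H3K9me1 regions in its body. One of 1.5 kb began 23.4 kb after the 5' end, and the other 6 lay from 72.9 kb onward. The last of these, 18.75 kb wide, ran from 114 kb to 133 kb after the 5' end and so past the 3' end of the gene. In the transcript with the longest coding sequence, Ehmt1-210, 15 of 27 exons were met, all from exon 11 to exon 27, and 50.5% of the coding bases were covered.

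Of the 17 start sites of Ehmt1, 2 were met. Both belong to transcripts annotated as targets of nonsense-mediated decay. The window of Ehmt1-215, 80.0 kb after the 5' end, was covered in full, and that of Ehmt1-206, 113 kb after it, was covered over 7.30%. All 8 sites near the 5' end were unmet, and the closest H3K9me1 region lay 5.14 kb upstream of it.

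Ehmt2 (chromosome 17, 34898469 to 34914052, plus strand, 15.6 kb) had 1 H3K9me1 region of 4.5 kb, from 7.28 to 11.8 kb after the 5' end. This region met exons 10 to 20 of the 27 exons of Ehmt2-201 and 41.0% of its coding bases. It met 9 of 14 start sites, of which 2 belong to protein-coding transcripts, with 62.6% of the window covered at Ehmt2-206 and 100% at Ehmt2-214. The other 7 belong to transcripts with a retained intron, a processed transcript or a target of nonsense-mediated decay. Thus the high count for Ehmt2 comes from 1 region among closely spaced sites.

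Setdb2 (chromosome 14, 59402009 to 59440884, minus strand, 38.9 kb) encodes a relative of Setdb1 with a SET domain. It had 1 H3K9me1 region of 1.5 kb, from 30.4 to 31.9 kb after the 5' end. The region met exon 13 of the 15 exons of Setdb2-201, and 15.9% of the coding bases. The single start site met, of 5, was that of Setdb2-203, a transcript with a retained intron, with 75.0% of its window covered.

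Suv39h2 and Setdb1 had no region in the body. In Suv39h2 (chromosome 2, 3455815 to 3475031, minus strand, 19.2 kb), 0 of 4 start sites were met, and the nearest H3K9me1 region lay 6.47 kb upstream of the 5' end. Suv39h2 overlaps Dclre1c, a DNA repair gene on the other strand, by 8316 bp. Dclre1c had 20.6% of its own body covered by H3K9me1, outside the shared stretch. In Setdb1 (chromosome 3, 95323525 to 95357202, minus strand, 33.7 kb), which carries the floxed exons in this line, 0 of 5 start sites were met, and the nearest H3K9me1 region lay 150 kb from the body.

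Among the HP1 genes, Cbx5 (chromosome 15, 103191544 to 103239816, minus strand, 48.3 kb) had 5 H3K9me1 regions in its body. The first began 11.3 kb after the 5' end, and the last, 14.25 kb wide, ran from 39.1 kb to 53.3 kb and past the 3' end. It covered the last exon of Cbx5-201, which was the only 1 of 5 exons met, with 84.8% of all exon bases of this transcript and 25.8% of its coding bases covered. Although Cbx5 had the largest covered share of the 8 genes, 0 of its 4 start sites were met. Its internal protein-coding starts, about 24.5 kb after the 5' end, lay at least 4.13 kb from the nearest H3K9me1 region.

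Cbx1 (chromosome 11, 96789127 to 96808640, plus strand, 19.5 kb) and Cbx3 (chromosome 6, 51470360 to 51483704, plus strand, 13.3 kb) had 0 of 5 and 0 of 8 start sites met and no region in the body. The nearest H3K9me1 region was 17.4 kb from Cbx1, on the upstream side. For Cbx3, the closest region of any list was an H3K9me3 region 2334 kb away.

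The covered part of the 4 genes was then followed from the 5' to the 3' end in 10 equal parts. In all 4, the first part was at 0 and the last 3 parts together were covered more than the first 3. Of 2556 protein-coding genes of at least 5 kb with an H3K9me1 body on the same 4 chromosomes, 66.5% had more cover in the last 3 parts and 23.6% in the first 3. The mean of these genes was 31.2% in the first part and 63.3% in the last. The 4 genes had a mean of 0% and 50%. The 2556 genes were not matched for the amount of cover, and the 4 genes had only 3.86% to 34.6% of the body covered. The means therefore differ in amount as well as in position. In Ehmt1 and Cbx5 the last part was covered in full, whereas in Ehmt2 the peak lay in parts 6 and 7 (100% each), with 0% in the last.

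**Figure D3:**
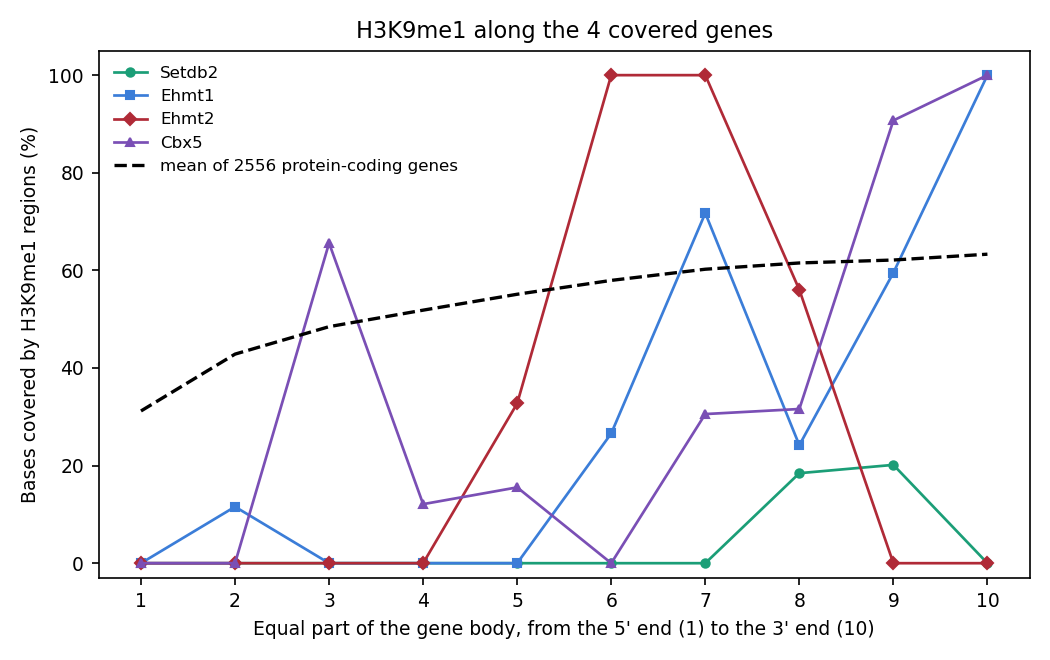
The horizontal axis gives the 10 equal parts of the gene body from the 5' end (1) to the 3' end (10), and the vertical axis the percent of bases covered by H3K9me1 regions, for Setdb2, Ehmt1, Ehmt2 and Cbx5, with the mean of 2556 protein-coding genes of chromosomes 2, 14, 15 and 17 as a dashed line. All 4 genes start at 0%, where the mean is 31.2%, and Ehmt1 and Cbx5 end at 100%, where the mean is 63.3%. The 2556 genes are not matched to the 4 for the amount of cover.

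The first covered base lay 7.28 kb (Ehmt2), 11.3 kb (Cbx5), 23.4 kb (Ehmt1) and 30.4 kb (Setdb2) after the 5' end. The median of the 2556 genes, not matched for the amount of cover, was 2.86 kb. The 3' end of the gene was inside an H3K9me1 region in 2 of 4 (Ehmt1 and Cbx5), against 63.8% of the 2898 protein-coding genes of any length with an H3K9me1 body on these chromosomes. In 4 of 4, the 5' end was not met, against 60.3% of the 2898. Likewise, 4 of 4 had neither H3K9me2 nor H3K9me3 in the body, against 63%, and both held for 45% of the 2898. With 4 genes, the arrangement of an unmet 5' end and a body covered by H3K9me1 alone cannot be called particular to them.

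The base composition was compared between the covered and the uncovered bases of the same gene. The share of soft-masked (repeat) sequence was lower in the covered part in 4 of 4, with 18.7% against 33.6% in Ehmt1, 16.5% against 31.7% in Ehmt2, 21.2% against 34.1% in Setdb2 and 31.8% against 42.0% in Cbx5. GC content differed less, with 43.9% against 42.3% in Ehmt1 and 41.2% in both parts of Cbx5. The covered part of Setdb2 is only 1.5 kb. Exons and introns were compared in 1 transcript per gene, that with the longest coding sequence. In all 4, exon bases were covered more than intron bases, with 67.0% against 27.5% in Ehmt1-210 and 84.8% against 26.4% in Cbx5-201. Cbx5-201 starts 24.5 kb after the gene's 5' end. Only 1 of its 5 exons was met, and its coding bases were covered over 25.8%. These comparisons were not made over other genes, so no result of them can be called a trait of these 4. The parts of repeat and exon content in the cover were not tested.

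The covered share differed widely between chromosomes, and this bears on every count above. On the 7 chromosomes with these genes, H3K9me1 covered from 0.130% (chromosome 6) to 46.8% (chromosome 15) of the bases that are not N. The share was 12.1% on chromosome 2, 0.199% on chromosome 3, 16.9% on chromosome 11, 11.2% on chromosome 14 and 26.5% on chromosome 17. H3K9me2 and H3K9me3 followed the same order at both ends, with 0.0179% and 0.687% on chromosome 6, and 46.1% and 44.1% on chromosome 15. The 7 chromosomes together had 13.9% H3K9me1, 9.31% H3K9me2 and 11.2% H3K9me3, against 12.4%, 9.48% and 11.4% of all 21.

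**Figure D4:**
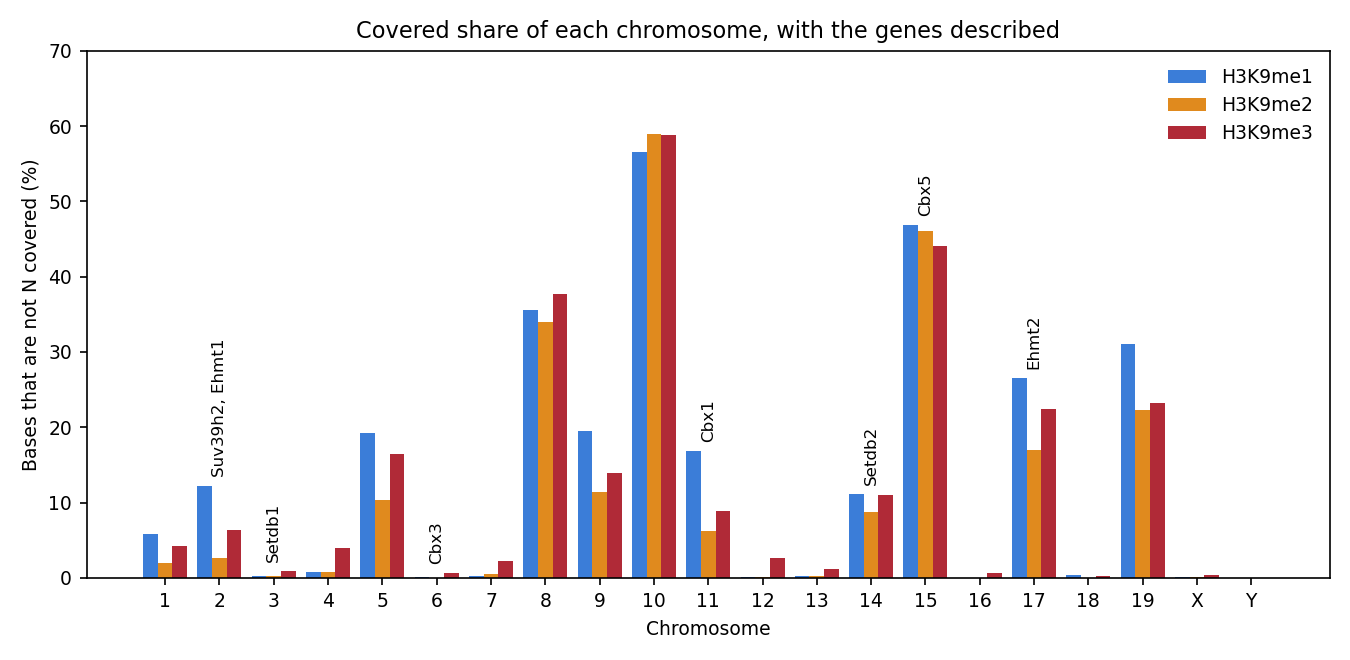
Bars give the percent of bases that are not N covered by the regions of each mark on each of the 21 main chromosomes, with the 8 genes written above their chromosomes. Setdb1 and Cbx3 lie on chromosomes 3 and 6, where each mark covers under 1%, and Cbx5 lies on chromosome 15, where H3K9me1 covers 46.8%.

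Within each chromosome, the share of protein-coding genes with a start site met by H3K9me1 was 33.3% on chromosome 2 (Ehmt1 met, Suv39h2 not), 36.3% on chromosome 14 (Setdb2 met), 52.4% on chromosome 17 (Ehmt2 met), 78.6% on chromosome 15 (Cbx5 not) and 37.3% on chromosome 11 (Cbx1 not). On chromosome 3 it was 0.896% and on chromosome 6 it was 0.45%, so the absence of H3K9me1 from Setdb1 and Cbx3 cannot be told apart from the near absence of the mark from their chromosomes in these lists. Of the genes on chromosomes 3 and 6, 98.6% and 98.9% had no H3K9me1 in the body. Suv39h2 shared an empty body with 48.2% of the genes of chromosome 2, and Cbx1 with 40.5% of those of chromosome 11.

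By its share of the body under H3K9me1, Cbx5 was low for its chromosome although highest of the 8. On chromosome 15 the median protein-coding gene was covered over 81.6%, and 86.2% of genes had a larger share than Cbx5. Ehmt2 lay near the middle of chromosome 17 (median 35.7%, 53.3% of genes with a larger share), and Setdb2 near that of chromosome 14 (median 4.93%, 51.0% larger). Ehmt1 was in the upper part of chromosome 2, where the median was 2.32% and 32.8% of genes had a larger share. Thus the order of the 4 genes by covered share was not their order within their chromosomes.

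The 50 kb on either side of each gene were covered by H3K9me1 over 22.5% in sum (800 kb), by H3K9me2 over 2.91% and by H3K9me3 over 0.563%. H3K9me1 lay in the flanks of 6 of 8 genes, H3K9me2 in those of 3 and H3K9me3 in those of 2, while the shares of protein-coding genes with such a flank were 49.5%, 35.2% and 35.9%. With the lists together, it was 6 of 8 against 59.1%, and none of these shares is matched for chromosome. Setdb1 and Cbx3 had no region in either flank. H3K9me1 covered 56.6% upstream and 64% downstream of Cbx5, 51% and 43.5% of the flanks of Ehmt2, and 20.7% and 45.4% of those of Ehmt1. It covered 18% and 16.5% around Suv39h2 and 1.5% and 13.5% around Cbx1. Setdb2 had H3K9me1 on its downstream side only, over 28.5%.

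The nearest H3K9me2 region was 11.2 kb from Cbx5, 27.9 kb from Ehmt1, 40.3 kb from Setdb2, 94.7 kb from Ehmt2, 96.1 kb from Cbx1, 345 kb from Suv39h2, 3044 kb from Setdb1 and 12849 kb from Cbx3. For H3K9me3, the distance to the gene body was 11.2 kb at Cbx5, 43.4 kb at Ehmt2 and 79.3 kb at Setdb2, and from 457 kb (Suv39h2) to 2334 kb (Cbx3) at the other 5. Of the regions of these marks within the flanks, several lay at protein-coding neighbours. Upstream of Cbx5, an H3K9me2 region of 6 kb and an H3K9me3 region of 3 kb ended 11.2 kb from its 5' end and met Nfe2, which encodes an erythroid transcription factor and was the only neighbour with all 3 marks at a start site. Its body was covered over 72.6% by H3K9me1, 58.9% by H3K9me2 and 29.4% by H3K9me3. Farther upstream of Cbx5, H3K9me2 regions of 3.75 kb and 1.5 kb met no annotated gene, and 1 of 1.5 kb downstream met the long non-coding RNA gene D930007P13Rik. Downstream of Ehmt2, an H3K9me3 region of 1.5 kb met the start site of Hspa1b, which encodes an inducible heat shock protein, and covered 53.5% of its body. H3K9me2 regions of 5.25 kb each lay downstream of Setdb2, in Phf11d, and downstream of Ehmt1, in Cacna1b, a calcium channel gene.

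The flanks held 35 protein-coding neighbours, counted apart from genes that overlap a body. Of these, 17 had a start site met by H3K9me1, 1 by H3K9me2 and 2 by H3K9me3, which can be read beside the 28.3%, 10.8% and 10.2% of all protein-coding genes. Ehmt2 had the most neighbours met by H3K9me1, 7 of 9, namely Skiv2l, Cfb, Gm20547, C2, Zbtb12, Slc44a4 and Neu1. On its chromosome 17, 52.4% of protein-coding genes had a start site met by H3K9me1. Cfb and C2, which encode complement proteins, were covered over 100% and 53.7% of their bodies. The other neighbours met by H3K9me1 were Hspa14 at Suv39h2, Phf11d and Phf11c at Setdb2, Cacna1b and Arrdc1 at Ehmt1, Skap1, Snx11 and Copz2 at Cbx1, and Smug1 and Nfe2 at Cbx5.

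In 4 of the 8 genes, the 5' end faces that of a gene on the other strand within 1 kb. The distances between the gene ends are 88 bp for Setdb2 and Cab39l, whose outermost transcript is non-coding and starts before its UTR, 204 bp for Ehmt2 and C2, 466 bp for Cbx3 and Hnrnpa2b1, and 616 bp for Cbx5 and Hnrnpa1. Cab39l, Hnrnpa2b1 and Hnrnpa1 had no start site met by any list, whereas C2 had one met by H3K9me1, away from the start it shares with Ehmt2.

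The genes whose pattern over the 30 values (3 marks in 10 parts) was closest to each covered gene were sought among 17797 protein-coding genes of at least 5 kb. The closest were Fam135a for Setdb2 (mean absolute difference 0.287 percentage points), Mr1 for Ehmt2 (0.669 points), Pkp1 for Ehmt1 (1.35 points) and Tmem123 for Cbx5 (3.68 points). These differences were not adjusted for the covered share of each gene (3.86% in Setdb2, 34.6% in Cbx5), so they do not rank the 4 by likeness. These are descriptions of 1 map per mark.

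Related genes were read from 4 lists, which reach beyond the H3K9 pathway. Some genes stand in both the list of partners and that of chromodomain genes. Among 19 partners of the methyltransferases and HP1, 9 had a start site met by H3K9me1, 0 by H3K9me2 and 1 by H3K9me3, and 11 had H3K9me1 in the body, against 28.3%, 10.8%, 10.2% and 39.3% of all protein-coding genes. In the body, H3K9me2 met 2 of the 19 and H3K9me3 met 2, against 16.5% and 16.3%. The median body share of the partners under H3K9me1 was 10.3%, against 0% over all 21938 protein-coding genes, and 14 of the 19 lie on chromosomes with over 1000 H3K9me1 regions. Of the 21 main chromosomes, 11 had over 1000 such regions. The share of all protein-coding genes on these 11 was not counted, for this list or those below. The 3 with most H3K9me1 in the body were Incenp (74.1%), a subunit of the chromosomal passenger complex that binds HP1, Pphln1 (60.7%), a subunit of the HUSH complex, and Chaf1a (49.4%), the large subunit of the chromatin assembly factor CAF-1. Sp100, a nuclear body protein that binds HP1, was the gene with H3K9me3 at a start site, and 33.8% of its body was covered by that mark.

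Among 13 genes listed as H3K9 demethylases and their relatives, 2 had a start site met by H3K9me1, against 28.3% of protein-coding genes. These were Jmjd1c (83.4% of the body) and Kdm4b (80.9%). The other marks met a start site of 0 of the 13, against 10.8% and 10.2%. In the body, H3K9me2 met 2 of the 13 and H3K9me3 met 1, against 16.5% and 16.3% of protein-coding genes. The median body share under H3K9me1 was 0%. On chromosomes with over 1000 H3K9me1 regions lie 3 of the 13, and 6 of the 8 genes described here.

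Among 34 other SET domain methyltransferases, 10 had a start site met by H3K9me1, against 28.3% of protein-coding genes, and 0 had their 5' end met, against 15.6%. No H3K9me2 region met a start site of the 34, against 10.8%. The median body share was 0%, and 17 of the 34 lie on chromosomes with over 1000 H3K9me1 regions. The most covered were Kmt5b (73.8%), which methylates H4K20, and the H3K4 methyltransferases Kmt2d (72.1%) and Kmt2a (47.3%). H3K9me3 met a start site of 1 gene, against 10.2% of protein-coding genes. This was Prdm16, a factor of brown fat differentiation, with 98.6% of its body under H3K9me3.

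Among 22 chromodomain genes outside HP1, 8 had a start site met by H3K9me1, 1 by H3K9me2 and 2 by H3K9me3, against 28.3%, 10.8% and 10.2% of protein-coding genes. The median body share under H3K9me1 was again 0%, and 14 of the 22 lie on chromosomes with over 1000 H3K9me1 regions. The most covered by H3K9me1 were the remodeler Chd9 (79.9%), Cbx7 (79.7%) and the acetyltransferase Kat5 (72.7%). Cbx7 and Cbx6 encode Polycomb chromodomain proteins and lie on chromosome 15, as does Cbx5. Cbx7 had all 3 marks at its 5' end, with 56.6% of its body under H3K9me2 and 37.6% under H3K9me3. Cbx6 had H3K9me1 and H3K9me3 at its 5' end, with no H3K9me3 in the body. The 5' end of Cbx5 on the same chromosome was met by no mark.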

How the data were processed

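ChIP-seq libraries of H3K9me1, H3K9me2, H3K9me3 and input DNA were made from WT MEFs, with 2 replicates per group per the labels. The authors used bwa (0.7.1 in the submitters' processing notes) for alignment against the mm10 assembly, GRCm38, and called regions with histoneHMM, a hidden Markov model over genomic bins. How replicates and input entered the call was not given in the sources used here. The deposited lists (42704 regions for H3K9me1, 29119 for H3K9me2 and 27108 for H3K9me3) hold chromosome, start and end only, with no score and no value per replicate. No list of the input was analysed here. The reads behind a region are therefore not known from the lists, and no test, SD or interval over samples was made. With starts taken as 1-based, every region boundary fell on multiples of 750 bp.

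Regions of a list were merged and intersected with GENCODE M21 genes by at least 1 bp. Start site windows were 1 kb either side, flanks were 50 kb, and N bases were left out of chromosome shares. Interval code was checked on 200 simulated lists against base-by-base counts, with 0 mismatches in 4200 windows. Sequence came from the RefSeq copy of GRCm38.

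The 8 genes and the gene lists were chosen with earlier results of these data known. Named were all 8 genes, genes of each list with a start site met by H3K9me2 or H3K9me3, the 3 of each list with most H3K9me1 in the body among those with a start site met, flank genes with a start site met, and the gene closest in pattern. Other genes were named where they overlap or face one of the 8. Alternatives covered the window, the start sites used, region width, joining, the flank and the base count. Python 3.11.15 and NumPy 2.4.6 were used.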

Additional observations from a re-analysis of the deposited data

How the results depend on the processing

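Under 92 alternative values, 73 stayed within 1.5 times the count, or within the 95% Wilson interval over bins for a share (counting error of bins only), and 19 did not. Genes with a start site met by H3K9me1, 3 of 8, fell to 0 with the gene's 5' end only, to 1 with protein-coding transcripts only (Ehmt2) and to 1 with regions of at least 5 kb (Ehmt1), with the same counts for any mark. Windows of 5 kb added Cbx5, and regions of at least 2 kb left out Setdb2 (2 of 8 met). H3K9me2 and H3K9me3 stayed at 0 of 8 under all 10 start-site alternatives and at 0% of bodies under all 6 body alternatives. These settings could not have moved the 2 marks, although the values are counted among the 73. Most of the settings can only lower a count. The nearest region of either mark lay 11.2 kb from a body (Cbx5), beyond the widest window of 5 kb. H3K9me1 in the bodies (19.1%) was 33.2% over exons only and 12.3% with regions of at least 5 kb, again the same for any mark. With regions of at least 5 kb, the flanks had 14.7% H3K9me1 (22.5% with all regions), 0% H3K9me3 (0.563%) and 16.0% any mark (23.5%). H3K9me2 covered 1.88% of 20 kb flanks (2.91% of 50 kb), and H3K9me3 1.27% of 100 kb flanks (0.563% of 50 kb). Over all bases including N, the 7 chromosomes had 13.6% H3K9me1, 9.07% H3K9me2, 10.9% H3K9me3 and 22.7% any mark (13.9%, 9.31%, 11.2% and 23.3% without N), which follows from the larger denominator. For the other changes, the cause was not tested.

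No paired analysis was possible because neither replicate has a value of its own in these lists, and leaving out a replicate was not run for the same reason. A region too weak to be called cannot be told apart from no enrichment, as the lists hold no score.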
